A study of Saccharomyces cerevisiae with 8 samples.

Results

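Of 355 loci bound by MCM2-7 or ORC in these cells, 91 held between 2 and 8 MCM2-7 binding events. They were found by pooling the events of all 6 lists, chaining events at most 250 bp apart into loci, and keeping loci whose MCM2-7 events summed to 2 to 8 over both replicates with at least 1 in each. A further 260 loci held 9 or more MCM2-7 events and are called crowded loci here, and 4 loci fitted neither description. The event number chose the loci, so every MCM2-7 value given for them, being from the same lists, is a description without a test.

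The data are ChIP-Exo binding events from Saccharomyces cerevisiae W303. In this assay lambda exonuclease trims immunoprecipitated chromatin up to the crosslinked protein, which places a bound complex at a base. Strain YC779 carried Flag-tagged Mcm4, a subunit of the MCM2-7 helicase, and was arrested in G1-phase with alpha-factor (2 biological replicates). Strain YC795 carried Flag-tagged Orc2, a subunit of the origin recognition complex (ORC), and was arrested in G1-phase with alpha-factor or in G2-phase with nocodazole (2 biological replicates each). Both strains have the W303 background, all samples were precipitated with the same anti-Flag antibody, and Orc2 after release from G1-phase was not analysed here.

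ORC marks origins of replication throughout the cell cycle by binding the A-element, which contains the ARS consensus sequence. In G1-phase, ORC loads MCM2-7 onto the DNA as an inactive double hexamer (the MCM2-7 DH), which licenses the origin for the following S-phase. In G2-phase, cyclin-dependent kinase activity blocks new loading, and ORC occupies origins without newly loaded helicase. Each event in a list is a position called from a population of cells, and a locus can hold more than a single event.

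The lists held 1982 and 1723 MCM2-7 events, 1170 and 1379 ORC events in G1-phase, and 2178 and 861 ORC events in G2-phase, in replicates 1 and 2. Each event has a position on the R64 genome and a score from the event caller, which ranges from 66 to 1000 in whole steps and is not defined in the sources used here. The ORC lists run in nearly descending order of score and the MCM2-7 lists more loosely. Spearman's rho of early place with score was 0.889 and 0.925 in the MCM2-7 lists, where 280 and 301 steps went up. What orders the lines is not stated in the sources used here. Of the MCM2-7 events, 59.1% and 51.9% share the highest score of 1000 (the cap). The line of an event in its list separates these, but it is a place and not a measured strength. The event standing earliest in its list is called the first-listed event of a locus, and the mean of the first-listed positions of both replicates is called its MCM2-7 position. The lists carry no reads and the depth of each library is not given in the sources used here, and the number of events per locus can vary with depth.

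The few-event loci contributed 327 and 260 MCM2-7 events, 271 and 298 ORC events in G1-phase, and 487 and 201 in G2-phase. Only 2 loci held 2 MCM2-7 events, and 7 held 3, 5 held 4, 8 held 5, 14 held 6, 22 held 7 and 33 held 8. Just outside the limit, 52 loci held 9. The loci lay on all 16 chromosomes, with the most on chromosome X (10 loci) and 8 each on chromosomes XIII and XVI.

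The DNA at 9 of these loci is shown because it bears on which of them can be told apart. Each line gives 81 bp of the R64 reference around the MCM2-7 position, 5′ to 3′, and capitals mark a full match to the 11 bp ARS consensus sequence, with the strand chosen so that the match reads forward. The first 4 loci lie near chromosome ends, where subtelomeric elements with ARS activity are repeated between chromosomes. They are ARS1002 (chrX:7710-7790, minus strand), ARS902 (chrIX:7717-7797, minus strand), ARS319 (chrIII:315768-315848, plus strand) and ARS600 (chrVI:5449-5529, minus strand). ARS1018 (chrX:540552-540632, plus strand) and ARS1213 (chrXII:373261-373341, minus strand) lie inside their chromosomes. ARS111 (chrI:215021-215101, plus strand), ARS607 (chrVI:199419-199499, plus strand) and ARS305 (chrIII:39520-39600, plus strand) have no full match within 100 bp of the MCM2-7 position and are shown in lower case throughout.
ARS1002: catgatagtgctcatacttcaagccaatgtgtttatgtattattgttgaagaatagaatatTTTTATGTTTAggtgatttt
ARS902: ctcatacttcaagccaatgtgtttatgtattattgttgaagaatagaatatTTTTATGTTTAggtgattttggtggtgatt
ARS319: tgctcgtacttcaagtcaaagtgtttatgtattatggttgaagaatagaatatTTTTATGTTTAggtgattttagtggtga
ARS600: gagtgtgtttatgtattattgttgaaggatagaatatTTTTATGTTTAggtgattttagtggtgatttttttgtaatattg
ARS1018: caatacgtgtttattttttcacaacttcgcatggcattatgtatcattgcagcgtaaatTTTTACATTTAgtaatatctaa
ARS1213: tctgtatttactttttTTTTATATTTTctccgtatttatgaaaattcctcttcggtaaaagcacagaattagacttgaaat
ARS111: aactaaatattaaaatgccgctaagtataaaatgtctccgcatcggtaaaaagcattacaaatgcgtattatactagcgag
ARS607: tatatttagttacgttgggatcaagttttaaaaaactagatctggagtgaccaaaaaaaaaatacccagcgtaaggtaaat
ARS305: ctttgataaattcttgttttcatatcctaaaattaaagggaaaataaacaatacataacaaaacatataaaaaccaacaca

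Aligned on the consensus match, ARS1002 and ARS902 were identical over 71 of 71 bases, and ARS319 and ARS600 each shared 68 of 71 bases with ARS1002. ARS1018 shared 26 of 71. The window of ARS111, between the flocculin gene FLO1 and YAR061W, was repeated in full between FLO5, another flocculin gene, and YHR212W-A on chromosome VIII (chrVIII:535623-535703), and the event caller placed the MCM2-7 events of both copies in the same layout. At ARS111 they lay at 215053 and 215083 in replicate 1 and at 215070 in replicate 2, and at the FLO5 locus at 535655, 535685 and 535672. Events of identical copies cannot be told apart in these lists. In all, 11 of the 91 loci held a stretch of 40 bp within 100 bp of the MCM2-7 position that occurs more than once in the genome, and 8 of 91 were repeated over more than 50% of that window (8.79%, 95% Wilson interval 4.52 to 16.4), beside 11 of 260 crowded loci (4.23%, 2.38 to 7.42). Values on the first lines of the lists are therefore also given without them.

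The few-event loci filled the head of both MCM2-7 lists. Of the loci reached by the first 10 lines, 8 of 8 in replicate 1 and 9 of 10 in replicate 2 were few-event loci. The first 20 lines reached 15 of 18 and 16 of 20, and the first 100 lines 40 of 87 and 45 of 88. Without loci in repeated sequence, the first 10 lines reached 4 few-event loci of 4 in replicate 1 and 6 of 7 in replicate 2. The first 20 lines then reached 10 of 13 and 11 of 15, and the first 100 lines 32 of 72 and 35 of 73. A locus with few events was thus often a locus whose leading event stood high in the list.

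**Figure D1:**
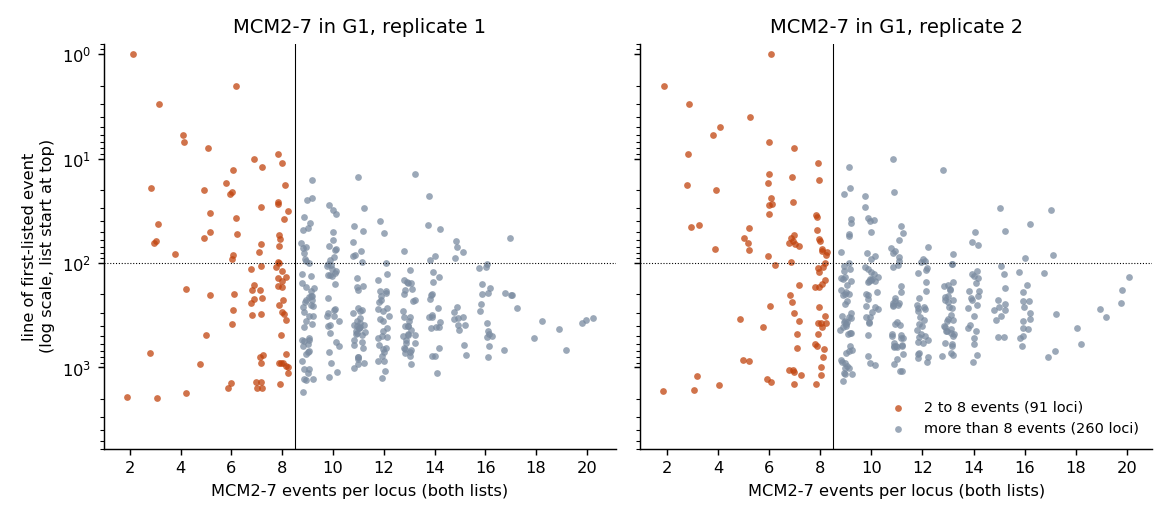
Each point is a locus, placed by its number of MCM2-7 events in both lists (horizontal axis, points spread sideways for visibility) and by the line of its first-listed event (vertical axis, log scale, list start at the top) in replicates 1 and 2. The dotted line marks line 100 and the vertical line the limit of 8 events. Among few-event loci, 34 of 91 lie above the dotted line in both panels, and so do 27 of 260 crowded loci.

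The first-listed event stood within the first 100 lines of both lists at 34 of 91 few-event loci (37.4%, 28.1 to 47.6) and at 27 of 260 crowded loci (10.4%, 7.24 to 14.7). The difference was 27.0 percentage points, and 22.4 without loci in repeated sequence. With all loci, the share fell with the event number on both sides of the limit, being 64.3% of 14 loci with 2 to 4 events, 59.1% of 22 with 5 or 6, 21.8% of 55 with 7 or 8, 13.6% of 88 with 9 or 10, 12.5% of 72 with 11 or 12, and 6% of 100 with 13 to 20. Just inside the limit, 7 of 33 loci with 8 events reached the first 100 lines in both lists, and just outside it 7 of 52 with 9 events. The median line was 139 in replicate 1 and 101 in replicate 2 at few-event loci, and 306.5 and 261.5 at crowded loci.

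The tail of the lists was also richer in few-event loci. Both first-listed events stayed below the score cap at 11 of 91 few-event loci (12.1%, 6.89 to 20.4) and at 4 of 260 crowded loci (1.54%, 0.600 to 3.89), and the number whose first-listed events stood beyond line 1000 in both lists was again 11 of 91 and 4 of 260. The lines of the 2 replicates ranked the few-event loci alike (Spearman's rho 0.898 over 91 loci, 0.780 over 260 crowded loci), a description over loci that share libraries. Over all their events, 63.9% (58.6 to 68.9) in replicate 1 and 57.3% (51.2 to 63.2) in replicate 2 were at the cap at few-event loci, beside 58.2% (55.8 to 60.6) and 51.0% (48.4 to 53.5) at crowded loci. The mean difference was 6.0 percentage points. With loci classed anew from a single MCM2-7 list, with the limit halved to 4 events and so not the same loci, it was 3.08 points for replicate 1 and 10.3 for replicate 2. Wilson intervals here cover counting error only.

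At the head of the lists stood ARS1001, close to the left end of chromosome X. It held 1 MCM2-7 event in each list, at position 330 on line 1 of replicate 1 and at 318 on line 2 of replicate 2, both at the cap and 12 bp apart. ORC bound it throughout, with 7 and 3 events in G1-phase and 10 and 5 in G2-phase, and the ORC event nearest to MCM2-7 was at the cap in all 4 lists. Its window is in repeated sequence. ARS200, near the left end of chromosome II and in part the same sequence, stood on line 2 of replicate 1 and line 1 of replicate 2 with 6 events.

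ARS607 on chromosome VI, a well-studied early-firing origin, led the loci in unique sequence and stood on line 3 of both lists. It held MCM2-7 events at 199446 and 199469 in replicate 1 and at 199472 in replicate 2, all at the cap, so that replicate 2 matched the replicate 1 event that was not first-listed to within 3 bp. ORC had 3 events in each G1-phase list and 9 and 3 events in the G2-phase lists. The ORC events at the cap in G1-phase, at 199422 in replicate 1 and at 199394 and 199427 in replicate 2, lay on the lower-coordinate side of all MCM2-7 events, and a weaker event of replicate 1, with a score of 422, lay on the other side at 199577. The 9 events of G2-phase replicate 1 ran from 199363 to 199501 and also covered both sides. The position falls in RUF22, an annotated RNA gene between ROG3 and PES4.

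ARS1619 (chromosome XVI, between YTA6 and UBP16) and ARS1213 (chromosome XII, beside HOG1, the kinase of the osmotic stress pathway) each held 3 MCM2-7 events, all at the cap. At ARS1619 the events lay at 418217 and 418237 in replicate 1 (line 19) and at 418193 in replicate 2 (line 9). At ARS1213 they lay at 373305 and 373323 (line 42) and at 373279 (line 18). Both loci kept an ORC event at the cap within 150 bp in each G1-phase list. ARS508 on chromosome V stood on line 6 of both lists with 4 events, at 94089 and 94110 in replicate 1 and at 94065 and 94091 in replicate 2, and its first-listed events differed by 2 bp.

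The loci with few and weak events looked different. ARS436 on chromosome IV, upstream of HKR1, an osmosensor gene, held 1 event in each list, with a score of 132 on line 1922 in replicate 1 and of 68 on line 1687 in replicate 2, and these events lay 417 bp apart. ORC had 1 event in each G1-phase list there, with scores of 502 and 440, then 4 events in G2-phase replicate 1 and 0 in replicate 2. A locus inside IRE1 on chromosome VIII, the gene of the unfolded protein sensor, held MCM2-7 events at 259613 and 259746 with scores of 66 and 82 in replicate 1 and at 259873 with a score of 81 in replicate 2. ARS1612, between the protease gene PEP4 and the checkpoint kinase gene RAD53 on chromosome XVI, lay in between, with scores of 454 and 1000 in replicate 1 and 424 in replicate 2. Its closest events differed by 3 bp although its first-listed events differed by 70 bp.

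**Figure D2:**
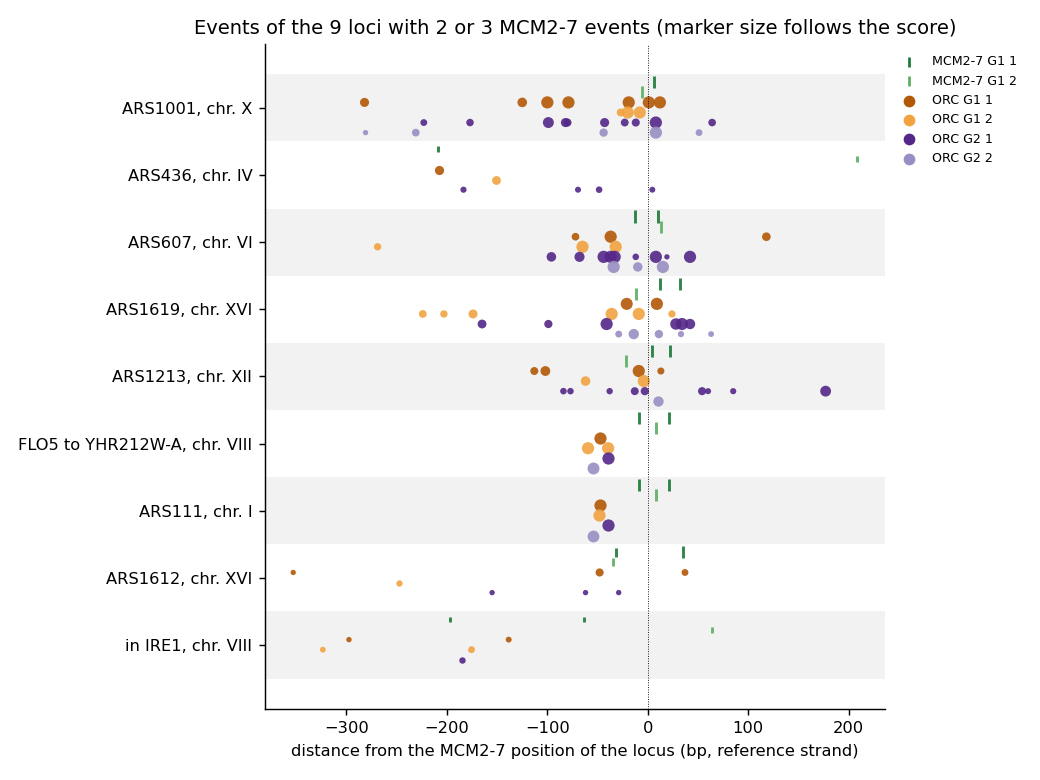
Binding events of the 9 loci with 2 or 3 MCM2-7 events, by distance from the MCM2-7 position of the locus in bp along the reference strand. Bars are MCM2-7 events and circles are ORC events, coloured by list, and marker size follows the score. MCM2-7 events crowd around 0 at ARS1001, ARS607, ARS1619 and ARS1213 and lie 417 bp apart at ARS436.

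Position agreement was measured as the distance between the first-listed events of both replicates. At few-event loci the median was 18 bp (quartiles 9.5 and 34, range 1 to 417), and at crowded loci 22 bp (quartiles 9 and 52.25, range 0 to 281). The difference of 4 bp in medians is small against the spread within either class, and the classes parted in the upper range, where 79 of 91 few-event loci (86.8%, 78.4 to 92.3) and 190 of 260 crowded loci (73.1%, 67.4 to 78.1) had a distance of at most 50 bp. At most 10 bp was found at 24 of 91 (26.4%) and 75 of 260 (28.8%). The distance between first-listed events cannot exceed the span of the helicase events of a locus. That span goes with the event number that chose the loci, and its median was 162 bp at few-event and 308.5 bp at crowded loci. The higher share within 50 bp at few-event loci was not tested apart from this limit and is no separate result. Taking the closest pair of events instead, the medians were 4 bp and 2 bp in the opposite order. More events give more pairs to choose from.

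**Figure D3:**
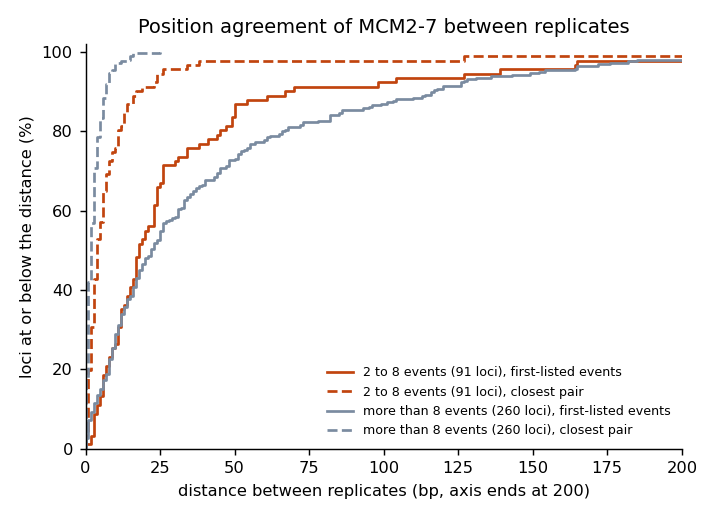
Cumulative share of loci (%) by the distance between MCM2-7 replicates in bp, for the first-listed events (solid) and for the closest pair of events (dashed), at 91 few-event and 260 crowded loci. The solid lines part above 20 bp and reach 86.8% and 73.1% at 50 bp, while for the closest pair the crowded loci run higher.

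Counted per event, 81.0% (76.4 to 84.9) of the 327 MCM2-7 events of replicate 1 had an event of replicate 2 within 50 bp at few-event loci, and 87.3% (82.7 to 90.8) in the reverse direction. At crowded loci these shares were 88.3% and 92.7%. Few-event loci were narrower in their MCM2-7 events, which spanned a median of 162 bp against 308.5 bp, but neighbouring events of a list were about as far apart in both classes, with medians of 36.5 and 35 bp at few-event loci and 40 and 34 bp at crowded loci. The whole loci, with ORC events included, spanned 339 and 377 bp. A smaller span goes with fewer events and is no separate result.

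The closest agreement was found at ARS507 on chromosome V, between VMA8, a subunit gene of the vacuolar ATPase, and RML2. Its first-listed events lay at 59460 and 59461, on lines 53 and 85. ARS508 and ARS1325 (649423 and 649421 on chromosome XIII) differed by 2 bp, and ARS1018 and ARS1307 by 3 bp. The farthest after ARS436 were ARS1305 in AIM33 (206 bp) and loci without an annotated origin between MFA2 and MPF1 on chromosome XIV (165 bp), between MRX16 and CCW22 on chromosome IV (164 bp) and between RNR1 and TDA2 on chromosome V (139 bp). The closest 5 loci had first-listed events at the cap in both lists, as did ARS1305, while the other 4 of the farthest 5 stayed below it, with scores of 669 or less. The loci whose first-listed events lay beyond line 1000 in both lists had a median distance of 98 bp (range 11 to 417), those within the first 100 lines 20.5 bp (range 1 to 54), and the 46 loci in between 16.5 bp (range 3 to 206).

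At the limit itself, loci with 8 events were represented by ARS1002, ARS319, ARS1005, ARS1014 and ARS1018, whose first-listed events stood on lines 9, 11, 18, 26 and 27 of replicate 1 and lines 11, 35, 83, 112 and 48 of replicate 2. The first loci with 9 events were ARS213, ARS209, ARS1008, a locus in SPO75 and ARS914, on lines 16, 24, 25, 36 and 41 of replicate 1 and lines 107, 12, 38, 22 and 55 of replicate 2. The median distance between first-listed events was 17 bp over the 33 loci with 8 events and 17.5 bp over the 52 with 9. Nothing in these distances marked the limit as a boundary. The lines above belong to loci picked as the earliest in replicate 1. Over all loci with 8 events the median line was 148 in replicate 1 and 160 in replicate 2. Over those with 9 events it was 242.5 and 325.5, with quartile ranges that overlap those at 8. Some shares also stood further apart, with overlapping intervals. Events at the cap made up 64.5% and 59.3% at loci with 8 events, and 53.6% and 47.7% at loci with 9. All 4 ORC lists had an event within 150 bp at 32 of 33 and 42 of 52 loci. Of the well-known origins looked up, ARS305 (5 events), ARS315 (8) and ARS607 (3) were few-event loci, and ARS1 (14), ARS301 (12), ARS306 (10), ARS307 (11), ARS317 (10), ARS522 (13), ARS603 (10) and ARS1021 (15) were crowded.

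ARS305, an early-firing origin of chromosome III, had first-listed MCM2-7 events at 39533 and 39587, on lines 58 and 65 and both at the cap, 54 bp apart. Its closest MCM2-7 events, at 39533 and 39527, differed by 6 bp. The ORC events nearest to the MCM2-7 position had scores of 436 and 1000 in G1-phase and of 919 and 281 in G2-phase. Other ORC events close by were at the cap. They included those at 39548 in G2-phase replicate 2, at 39583 and 39585 in G2-phase replicate 1, and at 39586 in G1-phase replicate 2. No ORC event of G1-phase replicate 1 was at the cap there. ARS315 on the same chromosome had its events at 224876 and 224893, on lines 59 and 160. Its nearest ORC events scored 783 and 1000 in G1-phase and 1000 and 163 in G2-phase, so that the range of the G2-phase lists covered that of the G1-phase lists.

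ORC was found near the MCM2-7 position at nearly all few-event loci. An ORC event lay within 150 bp of the MCM2-7 position at 89 of 91 loci (97.8%, 92.3 to 99.4) in G1-phase replicate 1, at 84 of 91 (92.3%, 85.0 to 96.2) in G1-phase replicate 2, at 89 of 91 (97.8%, 92.3 to 99.4) in G2-phase replicate 1 and at 78 of 91 (85.7%, 77.1 to 91.5) in G2-phase replicate 2. All 4 lists had such an event at 76 of 91 loci (83.5%, 74.6 to 89.7) and at 228 of 260 crowded loci (87.7%, 83.1 to 91.1). No few-event locus lacked ORC within 150 bp in every list, and 0 of 91 allows a share of up to 4.05%. These distances run from the mean of both first-listed positions and not from an MCM2-7 event, which matters where the replicates lie far apart. ARS436 counted only through an ORC event of G2-phase replicate 1 at 1306054, between its MCM2-7 events at 1305841 and 1306258. The median distance from the MCM2-7 position to the nearest ORC event was 13.5 bp in both G1-phase lists, and 10 and 15.75 bp in the G2-phase lists. At crowded loci it was 18 and 17 bp in G1-phase and 10 and 18.5 bp in G2-phase.

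Few-event loci held fewer ORC events in each of the 4 lists. The mean number per locus was 2.98 ± 1.37 (SD over 91 loci) against 3.44 ± 1.44 at 260 crowded loci in G1-phase replicate 1, and 3.27 ± 1.83 against 4.14 ± 2.08 in replicate 2. In G2-phase it was 5.35 ± 2.61 against 6.47 ± 2.60 in replicate 1 and 2.21 ± 1.57 against 2.54 ± 1.56 in replicate 2. Averaged over the lists, few-event loci differed from crowded loci by -0.70 ± 0.364 ORC events (SD over 4 lists). The sign was the same in 4 of 4 lists, and the exact two-sided sign-flip test over lists gave p = 0.13, which is the smallest value that 4 lists can give, so that no difference could pass the usual threshold. The spread between loci exceeded the difference in every list. ORC events also served to chain loci.

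**Figure D4:**
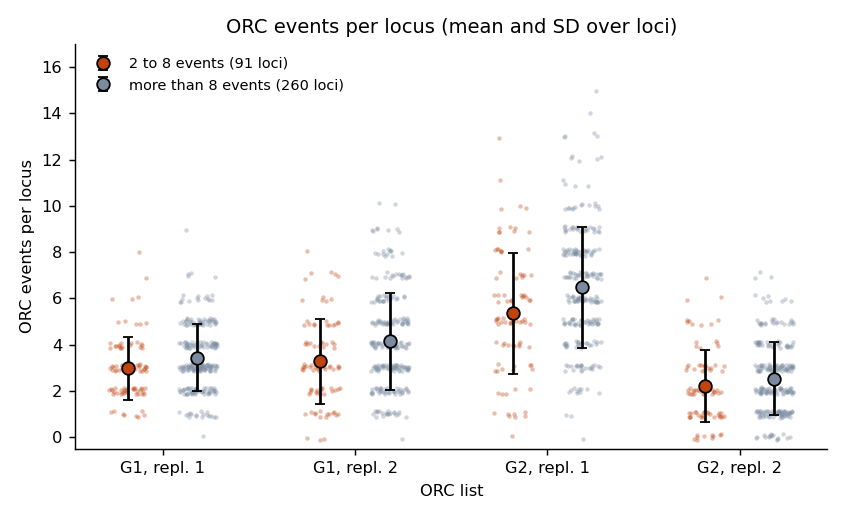
ORC events per locus (vertical axis, counts) in the 4 ORC lists, with small points for single loci and large points with bars for the mean and SD over 91 few-event and 260 crowded loci. The few-event mean is the lower in each list (5.35 against 6.47 in G2-phase replicate 1), and the bars overlap.

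The score of the ORC event nearest to the MCM2-7 position was expressed as its percentile among the events of its own list. It did not differ between the classes in a constant direction. Few-event minus crowded loci gave -4.44 and -4.92 percentile points in G1-phase and 3.95 and -0.79 in G2-phase, a mean of -1.55 ± 4.10 (SD, 4 lists, exact sign-flip p = 0.375). The medians at few-event loci were 58.8 and 37.1 in G1-phase and 64 and 54.5 in G2-phase. At the 76 loci with ORC within 150 bp in all 4 lists, the mean percentile was 58.2 and 50.1 in G1-phase and 65.6 and 53.6 in G2-phase. The phases overlapped, with a mean difference of -5.43 (exact two-sided permutation test over the 4 lists, p = 0.667, smallest possible p 0.33). Without G2-phase replicate 1 the difference was 0.57, and over loci with at most 6 MCM2-7 events it was -16.9 (exact permutation p = 0.33). An event at the cap stands at percentile 85.3 and 82.3 in the G1-phase lists but at 94.5 and 96.6 in the G2-phase lists. Loci at the cap in all 4 lists therefore lower these phase differences without any difference in score.

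The place of a few-event locus in the MCM2-7 lists went with the ORC score beside it, in G1-phase and in G2-phase. At the 34 loci in the first 100 lines of both lists, the median ORC percentile was 85.3 and 82.3 in G1-phase, which is the percentile of the cap in those lists, and 83.8 and 66 in G2-phase. At the 46 loci in between it was 55.2 and 34.3, then 52.1 and 46.5, and at the 11 loci beyond line 1000 it was 8.97 and 6.62, then 37.4 and 35.8. Loci without ORC within 150 bp drop out of these medians. In the order of the lists they cover 46, 42, 46 and 39 of the 46 loci, and 9, 8, 9 and 5 of the 11. All 4 lists had ORC within 150 bp at 34 of 34, 37 of 46 and 5 of 11 of these loci. The window is centred on the mean of both first-listed positions, which lay a median of 98 bp apart at the 11 loci. It can therefore miss ORC beside a single MCM2-7 event. At ARS436, ORC of G1-phase replicate 1 at 1305842 lay beside the MCM2-7 event at 1305841 but outside the window. The part of the fall that follows from this distance was not tested. The 26 leading loci without repeated sequence had medians of 75.3 and 46.6 in G1-phase and 79.9 and 71.1 in G2-phase. The 27 crowded loci in the first 100 lines had 68.6 and 82.3, then 63.3 and 75. These groups were formed after the values had been seen and were not tested.

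**Figure D5:**
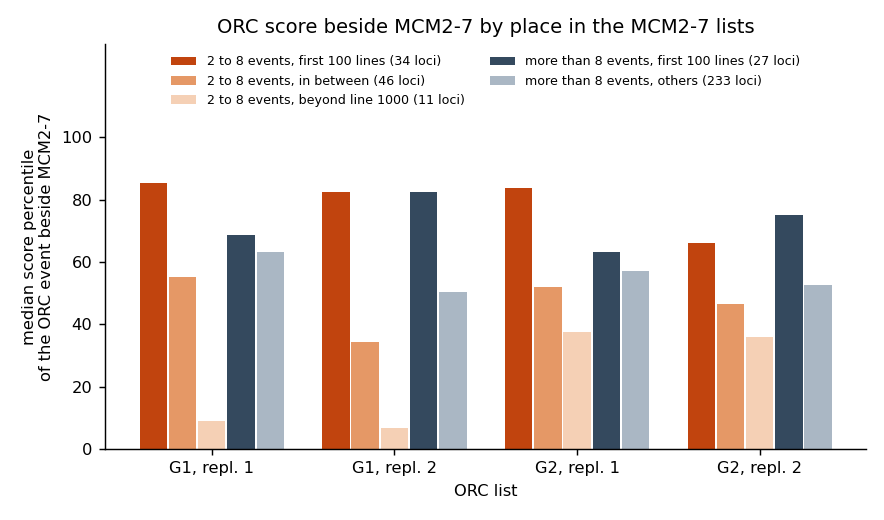
Median score percentile, within each ORC list, of the ORC event nearest to the MCM2-7 position (within 150 bp), for loci grouped by their place in both MCM2-7 lists. At few-event loci the bars descend from the first 100 lines to beyond line 1000 in all 4 lists, from 85.3 to 8.97 in G1-phase replicate 1.

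ORC events of the 2 phases were compared per locus by asking whether both lists of a phase held more events than both lists of the other. More in G1-phase was found at 4 of 91 few-event loci (4.4%), beside 3.94 percent of all 355 loci, and more in G2-phase at 5 of 91 (5.49%), beside 7.61 percent of all 355. Both shares are near those of all loci. ARS818 on chromosome VIII had 6 and 6 ORC events in G1-phase and 5 and 1 in G2-phase, and ARS1103 on chromosome XI, beside the kinase gene TOR2, had 5 and 5, then 4 and 2. The locus in IRE1 had 2 and 2, then 1 and 0. In the other direction stood ARS508 with 2 and 4 against 9 and 5, ARS1330 on chromosome XIII with 2 and 3 against 5 and 4, and the locus between RNR1, which encodes the large subunit of ribonucleotide reductase, and TDA2 with 1 and 3 against 9 and 6. G2-phase replicate 1 holds the most events and replicate 2 the fewest of the 4 ORC lists. Without G2-phase replicate 1 the number with more in G1-phase was 40. That count sets both G1-phase lists against the sparsest list alone, which is an easier rule. No share over all loci was computed for it, so it is no result about these loci.

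Few-event loci were origins by annotation about as often as the others. A position within 250 bp of an ARS of the RefSeq annotation was found at 75 of 91 (82.4%, 73.3 to 88.9), and at 210 of 260 crowded loci (80.8%, 75.5 to 85.1). No ARS lay within 1000 bp at 16 of 91 (17.6%, 11.1 to 26.7) and 49 of 260 (18.8%, 14.6 to 24.0). The earliest-listed of the 16 was the FLO5 locus in repeated sequence. After it came a locus in ATG10 on chromosome XII (lines 110 and 73), with first-listed events at 52179 and 52173, both at the cap. Its nearest ORC events had scores of 159 and 106 in G1-phase (percentiles 14.6 and 7.36) and of 269 and 70 in G2-phase (percentiles 52.1 and 2.21). Loci between UBP15 and SCW10 on chromosome XIII and between MRS3 and YJL132W on chromosome X, and a locus in DTR1 on chromosome II, followed, all with first-listed MCM2-7 events at the cap. The DTR1 locus had 8 and 8 ORC events in G1-phase and 8 and 7 in G2-phase.

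The MCM2-7 position fell outside annotated genes at 83 of 91 few-event loci (91.2%, 83.6 to 95.5) and 236 of 260 crowded loci (90.8%, 86.6 to 93.7). Between genes, 42 of 91 few-event loci lay in tandem, 30 in convergent and 9 in divergent spacing, and 2 beyond the last gene. Divergent spacing made up 9.89% (5.29 to 17.7) of the few-event and 18.1% (13.9 to 23.2) of the crowded loci. The 8 loci in genes were ARS607 (RUF22), ARS605 (MSH4), ARS1305 (AIM33), ARS103 (SEO1) and loci in ATG10, DTR1, SLX1 and IRE1. A position within 20000 bp of a chromosome end was found at 16 of 91 (17.6%, 11.1 to 26.7) and 26 of 260 (10%, 6.92 to 14.2), intervals that overlap.

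A full match to the ARS consensus sequence, searched on both strands within 100 bp of the MCM2-7 position, was present at 32 of 91 few-event loci (35.2%, 26.1 to 45.4) and at 79 of 260 crowded loci (30.4%, 25.1 to 36.2). Without loci in repeated sequence, the share was 30% of 80 few-event loci, so the classes did not part in this share. Of 60051 windows of 201 bp tiled over the genome, 1.23% held a match. Read with the consensus as in the sequences of ARS1002 and ARS1018, MCM2-7 lay downstream of the nearest match at 25 of the 32 loci and at 55 of 79 crowded loci. The median signed distance, with upstream positions negative, was 39.75 bp over the 32 loci and 25 bp over the 79. At ARS1002 and ARS1018 it lay upstream, by 26 and 23.5 bp, and at ARS1213 downstream by 19 bp. The 65 bp around the MCM2-7 position had a median AT content of 69.2% in both classes. The intervals of the shares with a match overlap between the classes.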

How the data were processed

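ChIP-Exo events of Mcm4 and Orc2 in W303 yeast were analysed from 6 lists. Reads were mapped by the authors to the R64 genome using Bowtie2 2.3.5 with its defaults. ChExMix 0.45 was then run per replicate, leaving out tRNA and rDNA genes, and kept events at q below 0.01 with 1.5-fold or more over background. The deposited score is the caller's value for each event, capped at 1000. Whether it was normalized between lists is not given in the sources used here. The other deposited value used is the event position in bp. The depth of each library is not given in the sources used here. W303 differs from the R64 reference strain, S288C, and such differences are not covered.

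Events up to 250 bp apart were chained, loci were classed by their MCM2-7 event number, and ARS names, genes and sequences were taken from RefSeq R64. Event numbers were compared in both phases. Shares carry 95% Wilson intervals. Exact two-sided permutation tests were run over lists, never over loci. Named loci were those with 2 or 3 MCM2-7 events, those first in the list at 8 and 9 events, those closest and farthest between replicates, the earliest without an ARS, known origins, and those with ORC events differing between phases. The loci at the head of the lists and the 8 loci in genes were named after their values had been seen, and so were the mean ORC events per locus and the first 100 lines chosen as measures. The members and lists were chosen with earlier results of these data known. Alternatives were chaining distances, event limits, windows, stronger events only, other ways to pair or rank events, each list left out and, added after seeing the data, loci in repeated sequence left out. The work was done in Python 3.11.15 (with SciPy 1.17.1, pandas 2.3.3, NumPy 2.4.6, Matplotlib 3.10.9), and scripts were tested on 300 simulated loci.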

Additional observations from a re-analysis of the deposited data

How the results depend on the processing

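The number of few-event loci was 91, and 36 with an upper limit of 6, 179 with a limit of 10, and 248 when only the stronger events (those not below their list's median score) were kept. It was 99 to 141 without 1 of the MCM2-7 lists, where the limit was halved to 4 events. The difference in the share of events at the cap (6.0 points) became 5.36 with chaining at 350 bp, 9.87 and 3.07 with limits of 6 and 10, 4.98 without loci in repeated sequence, 0 with the stronger events only, where all MCM2-7 events are at the cap, and 3.08 to 10.3 without 1 of the lists. The median replicate distance of 18 bp became 4 bp for the closest pair, and its difference from crowded loci turned from -4 to 2 bp. That difference was -0.5 bp with a limit of 6 and -8 bp with the stronger events only. With the stronger events only, ORC within 150 bp was found at 74.6% of loci in G1-phase and 74.2% in G2-phase. The median distance to ORC in G1-phase (13.5 bp) was 13.375 and 13.625 bp with chaining at 150 and 350 bp, 15.75 and 14.75 with limits of 6 and 10, 21 with the stronger events only, 13.25 and 14.375 with ORC windows of 100 and 250 bp, and 12.75 without repeated sequence.

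The difference in ORC percentile from crowded loci turned from -1.55 to 2.93 with a limit of 6, and was -0.04 with a limit of 10 and -3.38 to -0.43 without 1 of the ORC lists. The G1-phase minus G2-phase difference (-5.43) was -16.9 and -3.38 with limits of 6 and 10, -2.13 with the stronger events only, and ranged from -11.1 to 0.57 without 1 of the ORC lists (-0.92 without G1-phase replicate 2). The number of loci with more ORC events in G1-phase (4) was 1 and 8 with limits of 6 and 10, 14 with the stronger events only, and 5 to 40 without 1 of the ORC lists. Leaving out the lists in turn gave 14 and 8 without G1-phase replicates 1 and 2 and 40 without G2-phase replicate 1. The rule is easier to pass with a list left out. No share over all loci was computed for that setting or for the stronger events only. The share with a full consensus match was 19.8% within 50 bp, and 30% without repeated sequence. The excess in the first 100 lines of both lists (27.0 points) was 48.7 and 17 with limits of 6 and 10, 11.2 with the stronger events only and 22.4 without repeated sequence.

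With the replicate number as a block, the phase difference was -5.43 with an exact permutation p of 0.5. That is the smallest value this test can give, so it decides nothing. Deviations of same-numbered lists correlated at -0.07 over 304 loci, so the numbers were not taken to pair the samples.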
